A study of Mus musculus with 14 samples.

Results

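The regions described here are the loci of 9 Krüppel-like factor (KLF) genes, Klf2, Klf3, Klf4, Klf5, Klf6, Klf7, Klf9, Klf10 and Klf13, and the transcription factor (TF) peaks found around them while embryonic stem cells (ESCs) became macrophages. A locus was the RefSeq GRCm38 span of the gene plus 20 kb on each side, and a peak belonged to it when it overlapped that window. The 9 loci, of 21774 protein-coding loci, held 165 of 158488 peaks, in 14 lists from ChIP-seq, in which an antibody to a TF pulls down the DNA it is crosslinked to and that DNA is sequenced. Each list was 1 library of 1 TF at 1 stage. There were no replicates, so the counts carry no replicate error and no test was made.

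The cells came from 1 mouse ESC line of strain 129 that carries a Brachyury GFP reporter, which all stages share. The factors named for each stage are those analysed here and not all that the study assayed. Mesoderm (MES) was sorted as Bry.GFP+, FLK1- cells and gave lists of C/EBPβ and ELK4. Hemangioblast (HB) was Bry.GFP+, FLK1+ and gave lists of C/EBPβ and GATA2. Hemogenic endothelium (HE) was Bry.GFP+, Tie2+/Ckit+/CD41- and gave a list of C/EBPβ. Hematopoietic progenitors (HP) were CD41+ and gave lists of C/EBPβ, GATA1, GATA2, GFI1B, RUNX1 and PU.1, the product of Spi1. Macrophages (MAC) were CD11b+ and gave lists of C/EBPβ, RUNX1 and PU.1. The lists hold positions and no expression values, and the cell types were not checked against marker genes here. The study also reports RNA-seq of these stages, which was not used.

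KLF proteins bind GC-rich and CACCC sequences in promoters through a C-terminal block of zinc fingers that the family shares, and their N-terminal parts decide what they recruit. KLF3 belongs to the members that repress by binding CtBP, KLF9, KLF10 and KLF13 to those that recruit the corepressor SIN3A, and KLF2, KLF4, KLF5, KLF6 and KLF7 to those that mostly activate. In blood cells KLF4 is known for a part in monocyte differentiation and KLF2 for keeping lymphocytes and endothelium quiescent. C/EBPβ and PU.1 are the TFs best known from macrophage genes, while RUNX1, GATA2 and GFI1B act in emerging blood progenitors.

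The lists differed in length by orders of magnitude, from 72 peaks in MAC RUNX1 to 82866 in MAC PU.1, and the KLF loci followed. MAC PU.1 gave 73 of the peaks at these loci and MAC C/EBPβ 63, and the 9 lists with any peak there left 5 lists with none. The remaining 29 peaks came from earlier stages, with 4 in MES, 2 in HB and 23 in HP. Of the 126 combinations of locus and list, 41 held a peak, or 32.5%. This count pools lists whose shares of all coding loci ran from 0.363% (HB GATA2) to 79.1% (MAC PU.1). No pooled share of all coding loci was counted, so the 32.5% is a description only. List length is no measure of the amount of binding, since the authors set each threshold by eye, and a locus without a peak may have been bound below it.

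Macrophage binding was found at every KLF locus. All 9 had a MAC C/EBPβ peak, against 73.8% of protein-coding loci, all 9 a MAC PU.1 peak, against 79.1%, and all 9 had both, against 71.4%. These shares of all loci are so high that the members' count lies near the background. At the HP stage, PU.1 was found at 7 of 9 KLF loci (38.2% of all coding loci), C/EBPβ at 5 (14.8%), GFI1B at 3 (11.8%), RUNX1 at 2 (7.79%) and GATA2 at 1 (3.36%). Klf4 was the locus with no peak before MAC, and Klf9 was bound by PU.1 alone among the HP lists.

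Among the lists analysed here from MES, HB and HE, which cover C/EBPβ, ELK4 and GATA2, the peaks at these loci belonged to C/EBPβ. The study assayed further TFs at these stages, which were not analysed here. MES C/EBPβ was found at 3 of 9 KLF loci (6.47% of all coding loci) and HB C/EBPβ at 2 (4.24%), and a peak of C/EBPβ in MES, HB or HE stood at 3 (8.14%). No KLF locus had a peak of MES ELK4 (4.66% of coding loci), HB GATA2 (0.363%), HE C/EBPβ (0.684%), HP GATA1 (1.75%) or MAC RUNX1 (0.478%). The HB GATA2, HE C/EBPβ and MAC RUNX1 lists held 97, 132 and 72 peaks, so that 0 of 9 loci lies near the background.

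**Figure D1:**
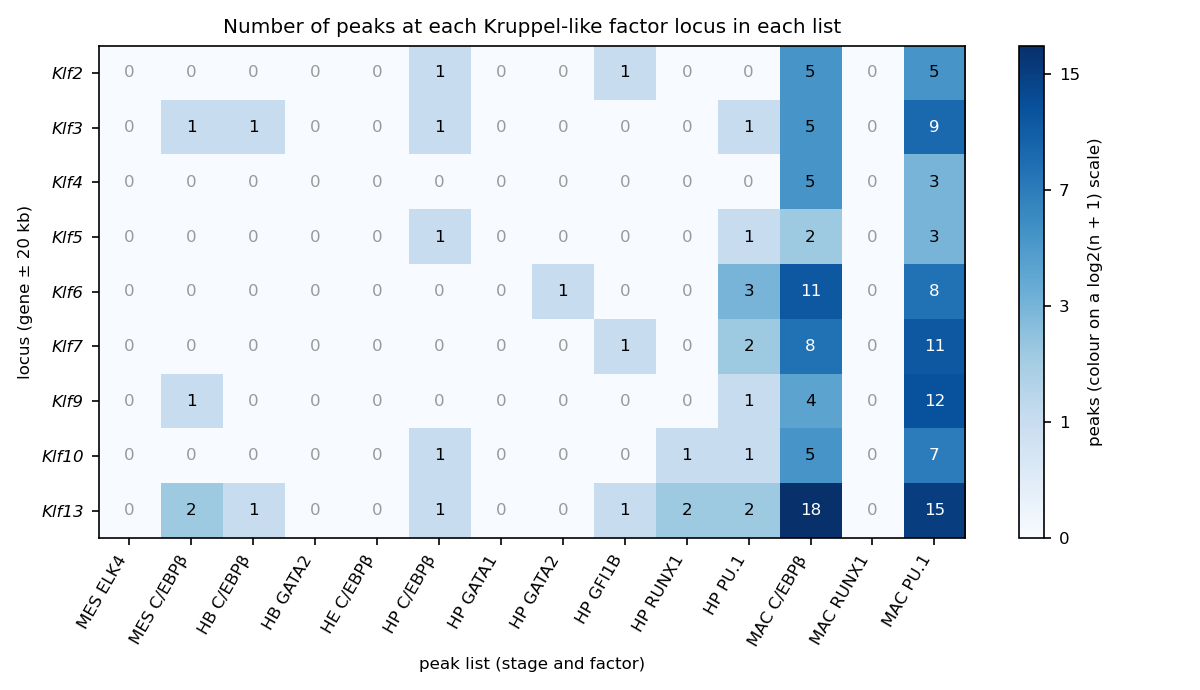
Number of peaks at each KLF locus (rows, gene plus 20 kb each side) in each of the 14 lists (columns, stage and factor), with darker blue for more peaks on a log2(n + 1) colour scale. Klf13 had the most peaks in MAC C/EBPβ (18) and in MAC PU.1 (15), and the columns of MES ELK4, HB GATA2, HE C/EBPβ, HP GATA1 and MAC RUNX1 hold 0 throughout.

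The loci that carried C/EBPβ in MES or HB were Klf3, Klf9 and Klf13. Klf3 is the member that binds CtBP, and Klf9 and Klf13 recruit SIN3A. A C/EBPβ peak in MES, HB or HE was found at 8.14% of all coding loci, so that its absence from the other 6 members is near the background and sets no class of members apart. In the positions that follow, distances are from the start of the annotated gene to the peak centre, in the direction of transcription, with upstream positions negative.

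Klf3, the CtBP-binding repressor, lies at chr5:64803521-64832901 on the forward strand and had 18 peaks in 6 lists, 4 of them before MAC. An intronic region 2.9 kb inside the gene, chr5:64806076-64806628, held C/EBPβ peaks at 4 stages. Their centres were at 2908 bp in MES, 2894 bp in HB, 2861 bp in HP and 2835 bp in MAC, and a MAC PU.1 peak was centred at 2755 bp. The 4 C/EBPβ centres lay within 1 peak width of each other, and PU.1 had a peak there in MAC and not in HP. The other early site was an intergenic HP PU.1 peak at -9358 bp, which returned in MAC at -9361 bp.

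Klf13, which recruits SIN3A and was named as an activator of the chemokine gene Ccl5 in T cells, lies at chr7:63886351-63938915 on the reverse strand. It had 42 peaks in 8 lists, 9 of them before MAC, the most of the 9 loci. An intronic region 41.9 kb inside the gene, chr7:63896823-63897334, held peaks of 7 lists. C/EBPβ was centred at 41880 bp in MES, 41882 bp in HB, 41892 bp in HP and 41884 bp in MAC. HP GFI1B was centred at 41864 bp, HP RUNX1 at 41780 bp and MAC PU.1 at 41792 bp. The C/EBPβ and GFI1B centres fell close together, while those of RUNX1 and PU.1 lay further upstream of them and near each other.

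Regions of that kind were few. A region bound in at least 7 lists was found 22 times among 117293 merged regions, and it stood at 1 of the 9 KLF loci and at 0.17% of coding loci. A region with C/EBPβ in MES, HB, HP and MAC stood at 2 of the 9 KLF loci and at 2.37% of coding loci. The cut-off of 7 lists is that of the Klf13 region, and these stages are those of C/EBPβ at the Klf13 and Klf3 regions. Both counts at the KLF loci were therefore fixed in advance and support nothing. The nearest coding transcription start site (TSS) to the Klf13 region was not that of Klf13 but that of E030018B13Rik, a gene nested in the Klf13 span, at 19822 bp. Of the 42 peaks at Klf13, 27 were nearest to the TSS of that nested gene. Among the curated TSSs of coding genes, no other KLF locus had a peak nearest to that of another gene. The windows of Klf2 and Klf3 also reach the coding genes Eps15l1 and Gm38457.

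The sequences under these regions are shown because they held C/EBPβ peaks at several stages. Neither held the C/EBP consensus. The consensus searched was TTGCNNAA, with A or G and then C or T at the N positions, on both strands. It was present in 43.2% of all MES C/EBPβ peaks, 44.3% of HB, 13.6% of HE, 38.3% of HP and 14.9% of MAC peaks, so that most peaks of each C/EBPβ list lacked it. After the sequences were seen, the related letters TGANGCAA were searched too, which join a C/EBP part to an ATF-like part and cannot match the same 8 bases as the first consensus. Each of the C/EBPβ peaks at these 2 regions held TGANGCAA or its reverse complement, shown in capitals in RefSeq GRCm38 sequence read on the strand of the gene.
Klf13, chr7:63896960-63897110, 41.9 kb: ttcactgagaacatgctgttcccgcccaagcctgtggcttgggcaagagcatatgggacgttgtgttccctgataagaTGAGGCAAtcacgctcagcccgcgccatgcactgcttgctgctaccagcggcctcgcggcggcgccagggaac
Klf3, site at 2.9 kb, chr5:64806302-64806329: aggctggggtTTGCGTCAtacattccaa
Only the 28 bases around the site are given for Klf3, because a predicted RefSeq transcript model places untranslated sequence in that window. At Klf13 the capitals ran from 41883 to 41890 bp, 2.5 bp from the nearest peak centre. At Klf3 they ran from 2791 to 2798 bp, 39.5 bp from the nearest centre, between those of MAC C/EBPβ and MAC PU.1.

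Counted over the KLF loci, TGANGCAA stood in 2 of 4 MES C/EBPβ peaks (50.0%, exact 95% interval 6.76 to 93.2%), in 2 of 2 HB peaks (15.8 to 100%) and in 2 of 5 HP peaks (5.27 to 85.3%). In MAC C/EBPβ it stood in 7 of 63 peaks (11.1%, 4.59 to 21.6%). Over the whole C/EBPβ lists the share was highest in HP (19.4%), then 16.0% in MES, 15.4% in MAC and 12.3% in HB, and lowest in HE (5.3%). The lists of other factors ran from 3.48% in HP RUNX1 to 13.4% in HB GATA2, with 6.15% in MAC PU.1, so that the shares of the C/EBPβ lists and of the other lists overlapped. Intervals here and elsewhere cover counting error only. The letters were chosen from these sequences and the peaks share regions, so the counts at the KLF loci are a description and support nothing. A match describes letters in the sequence and not a bound site.

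**Figure D2:**
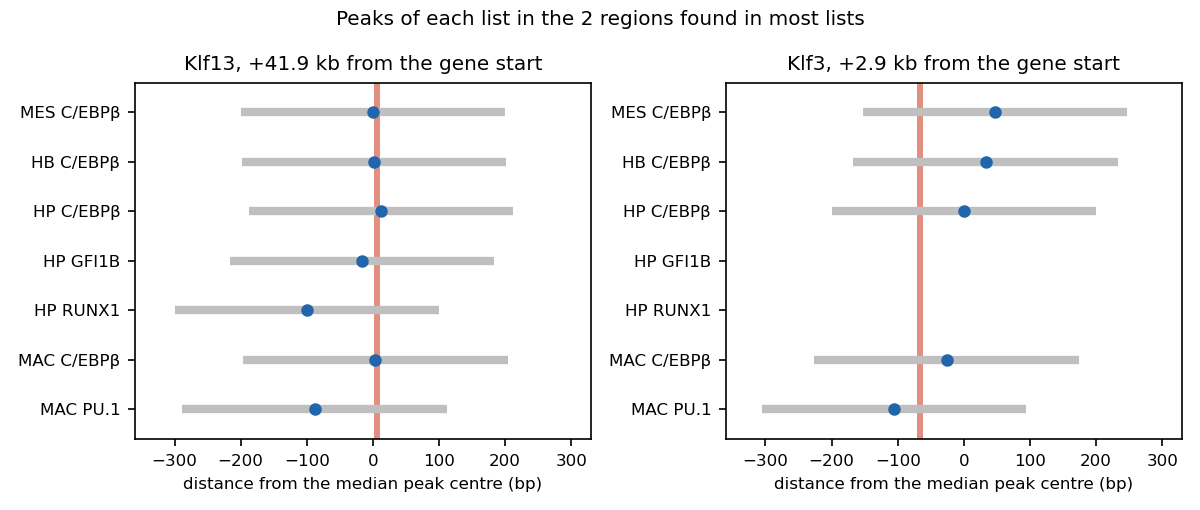
Peaks of each list in the Klf13 region at 41.9 kb (left) and the Klf3 region at 2.9 kb (right). Grey bars are the 400 bp peaks, dots their centres and the red band the TGANGCAA match, against the distance in bp from the median peak centre, with positive values downstream. At Klf13 the C/EBPβ centres of 4 stages fall on or beside the band, and at Klf3 the centre lies furthest from the band in MES among the C/EBPβ lists.

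Of the remaining Klf13 sites before MAC, 2 were HP PU.1 peaks in the intron. They were centred at 29997 and 27459 bp, and both were found again in MAC PU.1, at 29998 and 27460 bp. MAC C/EBPβ was centred at 29994 and 27493 bp in the same regions, where HP C/EBPβ had no peak. Each holds the PU.1 consensus GAGGAAGT, or its reverse complement, 5.5 and 2.5 bp from the HP centre. It is in capitals in the sequences, as is a TGANGCAA match to its left in that at 30.0 kb, and they are shown because, of the HP PU.1 peaks at the KLF loci, these had the consensus closest to the centre.
Klf13, chr7:63908843-63908993, 30.0 kb: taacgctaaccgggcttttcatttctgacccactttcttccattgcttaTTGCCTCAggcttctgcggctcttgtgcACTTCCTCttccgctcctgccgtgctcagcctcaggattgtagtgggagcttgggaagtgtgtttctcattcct
Klf13, chr7:63911380-63911530, 27.5 kb: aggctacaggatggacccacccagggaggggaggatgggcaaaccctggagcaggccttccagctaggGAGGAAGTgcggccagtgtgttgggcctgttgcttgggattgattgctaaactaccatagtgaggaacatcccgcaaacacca
Neither region held TTGCNNAA, although MAC C/EBPβ had a peak on each. At the Klf13 promoter an HP RUNX1 peak was centred at -709 bp, between MAC C/EBPβ at -559 bp and MAC PU.1 at -857 bp. The last early site was a MES C/EBPβ peak at -18304 bp in the noncoding gene Gm39024, with MAC C/EBPβ at -18348 bp.

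Klf9, a SIN3A-binding gene known to be induced by glucocorticoids and thyroid hormone, lies at chr19:23141226-23168129 on the forward strand. It had 18 peaks, of which 2 were from before MAC. MES C/EBPβ was centred at -5609 bp in the noncoding gene 2410080I02Rik. The MAC C/EBPβ peak of that region was centred at -5488 bp and the MAC PU.1 peak at -5168 bp, so that the MES and MAC C/EBPβ centres lay 121 bp apart, the widest gap between C/EBPβ lists at these loci. An HP PU.1 peak at -15809 bp returned in MAC at -15800 bp beside MAC C/EBPβ at -15835 bp. Of the letters searched, that region held the C/EBP consensus, in capitals in the site shown, and C/EBPβ had a peak there in MAC and not in HP.
Klf9, site at -15.8 kb, chr19:23125389-23125416: aagggaaggcTTGCATAAcccatgggtg

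Klf10, also called the TGFβ-inducible early gene, lies at chr15:38291464-38300711 on the reverse strand and had 15 peaks, 3 of them from HP. HP C/EBPβ was centred at 1931 bp, 1120 bp from the nearest of its annotated TSSs, with MAC C/EBPβ at 1916 bp and MAC PU.1 at 1796 bp. The C/EBP consensus lay 1.5 bp from a peak centre, and the sequence is shown as the C/EBPβ peak of HP with the closest consensus.
Klf10, chr15:38298720-38298870, 1.9 kb: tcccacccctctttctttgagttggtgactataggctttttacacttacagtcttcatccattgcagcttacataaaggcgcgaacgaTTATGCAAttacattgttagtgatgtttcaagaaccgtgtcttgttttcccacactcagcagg
An HP RUNX1 peak at -405 bp overlapped a MAC C/EBPβ peak at -138 bp in part, with 267 bp between the centres. An HP PU.1 peak downstream of the gene, at 11626 bp, returned in MAC PU.1 at 11603 bp with MAC C/EBPβ at 11495 bp. Of the 3 HP RUNX1 peaks at the KLF loci, 0 held the RUNX letters TGTGGTT (exact 95% interval 0 to 70.8%), and the interval includes the 26.2% of that list.

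Klf2, the flow-responsive factor of endothelium, lies at chr8:72319062-72321654 on the forward strand and had 12 peaks. HP C/EBPβ was centred at -15190 bp and MAC C/EBPβ at -15208 bp, over a C/EBP consensus. The other early peak was HP GFI1B at -237 bp, in the promoter, and it was the single peak of 29 before MAC that no MAC peak overlapped. Its region had 67.5% G and C and 38 CpG dinucleotides, and it held none of the letters searched. Both are shown, the second upstream of the annotated transcript.
Klf2, chr8:72303797-72303947, -15.2 kb: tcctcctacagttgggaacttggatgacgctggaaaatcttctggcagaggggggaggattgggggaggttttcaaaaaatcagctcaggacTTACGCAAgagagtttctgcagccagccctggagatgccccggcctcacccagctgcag
Klf2, chr8:72318750-72318900, -0.2 kb: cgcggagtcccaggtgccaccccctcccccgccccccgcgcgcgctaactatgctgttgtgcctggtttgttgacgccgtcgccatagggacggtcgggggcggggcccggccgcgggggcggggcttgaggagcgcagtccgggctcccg
In MAC the Klf2 promoter carried PU.1 at -1222, 609 and 1250 bp and C/EBPβ at -1283 bp, on either side of the HP GFI1B position.

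Klf4, a reprogramming factor that also acts in monocytes, lies at chr4:55527137-55532475 on the reverse strand. It had 8 peaks, 5 of MAC C/EBPβ and 3 of MAC PU.1, and none before MAC. MAC C/EBPβ at 2189 bp and MAC PU.1 at 2307 bp overlapped in a coding exon of the gene, which was the only region at Klf4 with both factors. MAC PU.1 also stood at 1443 and -760 bp. MAC C/EBPβ also stood at -2233, -8838 and -9441 bp, in the noncoding gene Gm12506, and at 23563 bp.

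Klf5, which acts in ESC self-renewal and in epithelium, lies at chr14:99298691-99313412 on the forward strand and had 7 peaks, the fewest of the 9 loci. HP C/EBPβ at -19375 bp lay near the edge of the window, with MAC C/EBPβ at -19425 bp and MAC PU.1 at -19417 bp. HP PU.1 at 1649 bp returned in MAC PU.1 at 1660 bp. The promoter C/EBPβ peak at -368 bp was found in MAC and in no earlier list.

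Klf6, an early-response gene of injury and inflammation, lies at chr13:5861489-5870393 on the forward strand and had 23 peaks. It was the locus with the most HP PU.1 peaks, at -11070, 14172 and 27421 bp, and each had a MAC PU.1 peak within 24 bp. The single HP GATA2 peak at a KLF locus was centred at -16257 bp, 30 bp from MAC C/EBPβ at -16287 bp. No GATA letters were found in it (AGATAAN, with C or G at the N, present in 46.6% of HP GATA2 peaks), and it held the AP-1 letters TGANTCA, with C or G at the N, at 2 places, -16228 to -16222 bp and -16215 to -16209 bp. Its sequence is shown with both in capitals.
Klf6, chr13:5845157-5845307, -16.3 kb: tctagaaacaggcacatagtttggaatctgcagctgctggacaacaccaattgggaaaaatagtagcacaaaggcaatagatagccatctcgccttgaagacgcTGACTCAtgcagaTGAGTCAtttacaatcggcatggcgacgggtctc

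Klf7, known from neurons, is the longest of these genes. It lies at chr1:64029448-64122345 on the reverse strand and had 22 peaks over a window of 132.9 kb. The HP peaks were GFI1B at 1113 bp, 157 bp from the annotated TSS of the curated transcript, and PU.1 at 70 and 43731 bp. MAC PU.1 was centred at 981, 85 and 43770 bp in these regions, and no MAC C/EBPβ peak overlapped any of them. The promoter PU.1 site held its consensus 6.5 bp from the nearest centre, and the intronic site held no PU.1 consensus, a GATA match 7 bp and an AP-1 match 4 bp from a centre. The PU.1 and the AP-1 match are in capitals.
Klf7, site at 0.1 kb, chr1:64122255-64122282: attgtgaggcACTTCCTCtctggcactt
Klf7, site at 43.7 kb, chr1:64078558-64078584: ggaagtggagTGACTCActtccgaccc

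**Figure D3:**
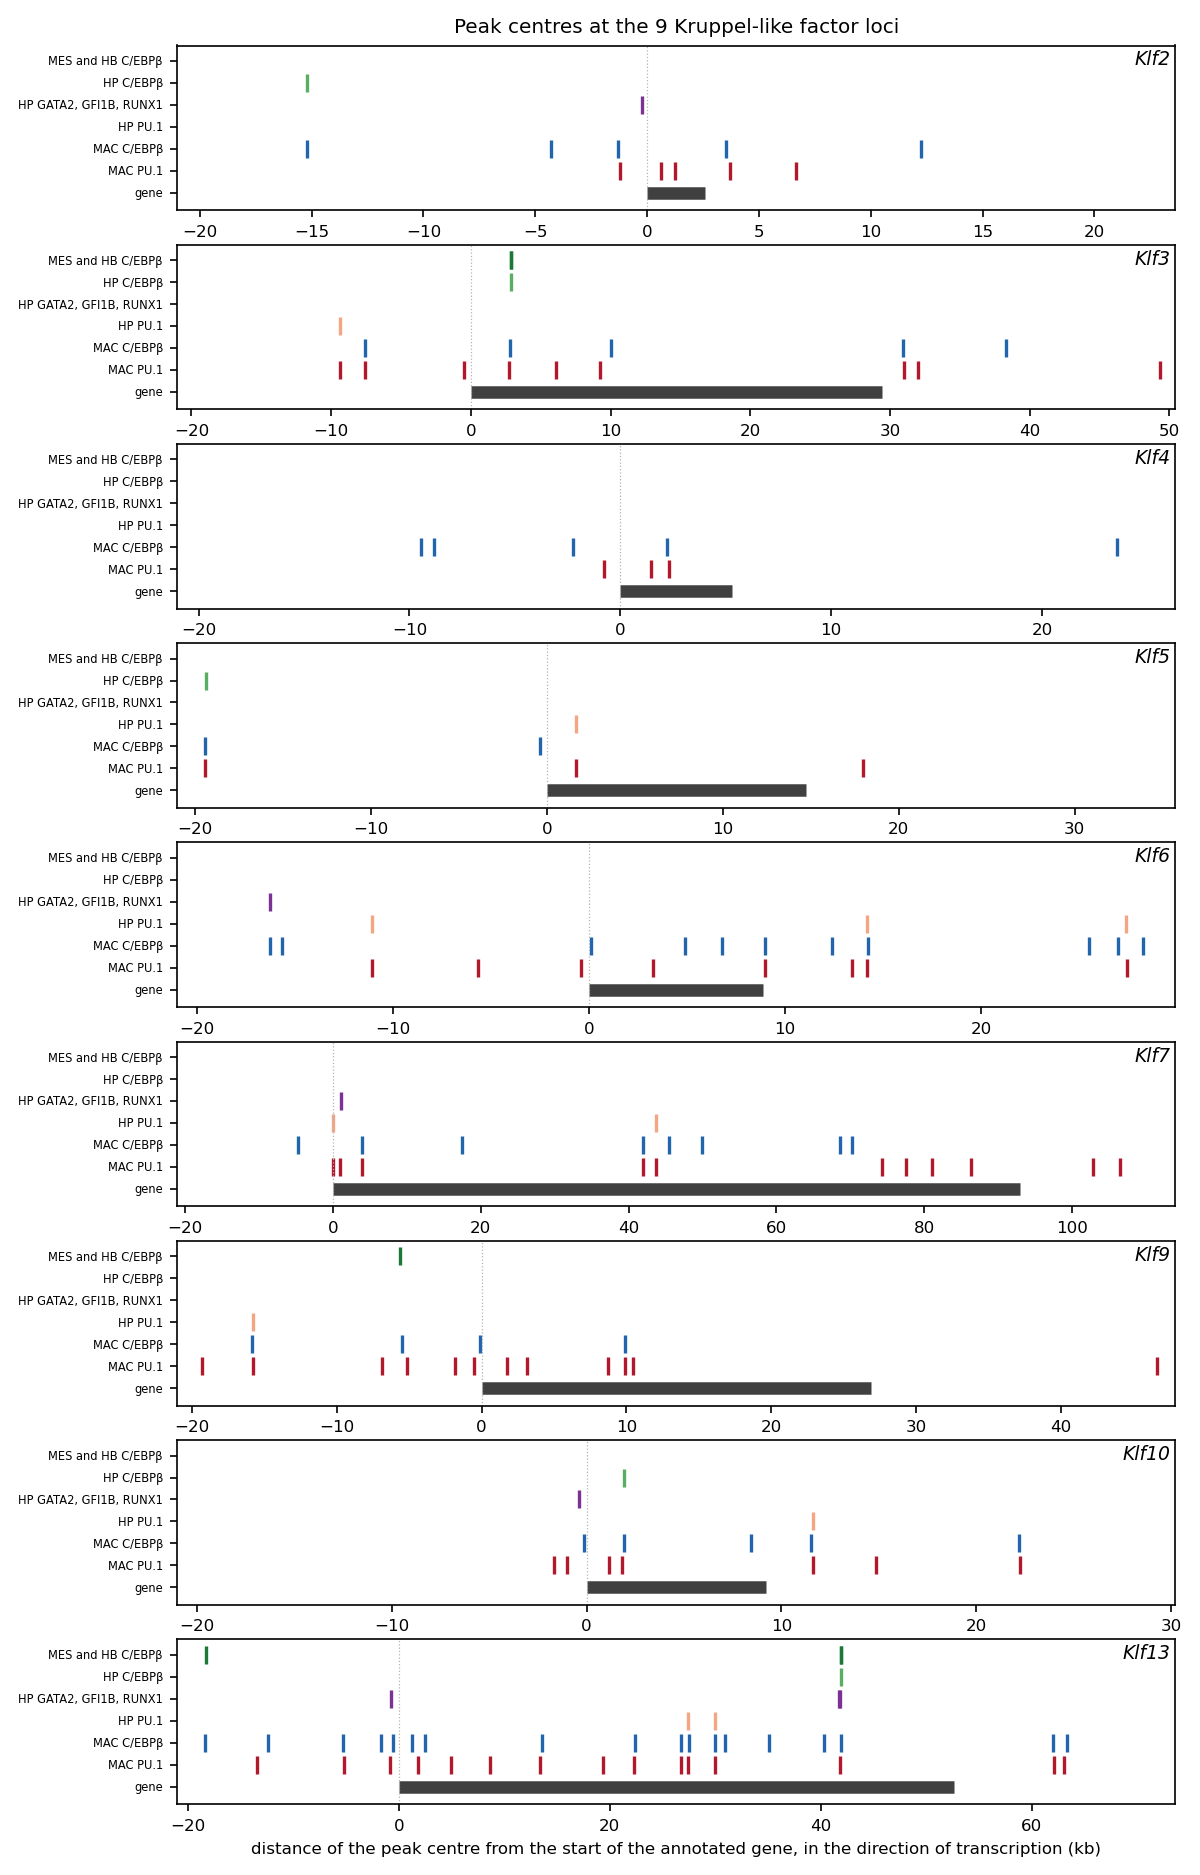
Peak centres at the 9 KLF loci against the distance in kb from the start of the annotated gene, in the direction of transcription, on a scale of its own for each locus. Each row of ticks is 1 list or group of lists and the dark bar is the gene. HP PU.1 ticks stand above MAC PU.1 ticks at each of their 11 positions, and Klf4 has ticks in the MAC rows alone.

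Peaks of the earlier stages mostly overlapped MAC peaks. At the KLF loci 11 of 11 HP PU.1 peaks overlapped a MAC PU.1 peak (exact 95% interval 71.5 to 100%), with a median distance between centres of 11 bp and a range of 1 to 39 bp. The whole HP PU.1 list gave 97.0%. HP C/EBPβ peaks overlapped MAC C/EBPβ in 5 of 5 cases (47.8 to 100%), at a median distance of 18 bp, and the whole list gave 91.4%. MES C/EBPβ gave 4 of 4 (39.8 to 100%), against 66.4% of that list, and HB C/EBPβ 2 of 2, against 68.8%. In a count added after the data were seen, 28 of 29 peaks before MAC overlapped a MAC peak (96.6%, 82.2 to 99.9%), against 84.5% of the 20079 peaks before MAC in all lists. The interval includes that share, and peaks that share a region are not independent.

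HP C/EBPβ and HP PU.1 did not share a region at any KLF locus. Of the 11 HP PU.1 peaks 0 overlapped HP C/EBPβ (interval up to 28.5%; 3.71% of the whole list). Of the 5 HP C/EBPβ peaks 0 overlapped HP PU.1 (up to 52.2%; 14.9%). These shares of the whole lists are low, so both counts of 0 lie near the background and nothing about the members is read from them. In MAC the other factor was often found at the same positions. MAC PU.1 overlapped 4 of the 5 HP C/EBPβ peaks (80.0%, 28.4 to 99.5%), against 52.5% of the whole list, and MAC C/EBPβ overlapped 5 of the 11 HP PU.1 peaks (45.5%, 16.7 to 76.6%), against 36.0%. Both of these MAC intervals include the whole-list share. Klf3, Klf5 and Klf10 had each of the factors in HP at separate sites, as did Klf13.

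Most macrophage sites had no earlier peak, at the KLF loci as in the whole lists. Of 73 MAC PU.1 peaks at the KLF loci, 11 overlapped HP PU.1 (15.1%, 7.77 to 25.4%), against 12.8% of the whole list. Of 63 MAC C/EBPβ peaks, 5 overlapped HP C/EBPβ (7.94%, 2.63 to 17.6%), against 4.48%. The merged regions gave 23 of 110 bound before MAC (20.9%, 13.7 to 29.7%), against 14.7% of all regions. Each interval includes the share beside it, so these counts lie near the background. HP PU.1 held 10943 peaks against 82866 in MAC, and HP C/EBPβ 2716 against 55471, so these shares could not be high.

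In MAC, the members differed in the number of peaks and in which factor prevailed. MAC C/EBPβ had 5 peaks each at Klf2, Klf3, Klf4 and Klf10, 2 at Klf5, 11 at Klf6, 8 at Klf7, 4 at Klf9 and 18 at Klf13. The median was 5 over the KLF loci and 2 over all coding loci. MAC PU.1 had 5 peaks at Klf2, 9 at Klf3, 3 each at Klf4 and Klf5, 8 at Klf6, 11 at Klf7, 12 at Klf9, 7 at Klf10 and 15 at Klf13, with a median of 8 against 4. Above the median of all coding loci were 8 of 9 KLF loci for C/EBPβ and 7 of 9 for PU.1. Of all coding loci, 46.4% had more than 2 MAC C/EBPβ peaks, and 56.1% had fewer than 5 MAC PU.1 peaks.

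Klf13 and Klf6 stood highest for C/EBPβ. Fewer C/EBPβ peaks than at Klf13 were found at 99.1% of coding loci, and fewer than at Klf6 at 96.3%. For PU.1 the corresponding shares were 95.4% at Klf13 and 91.6% at Klf9. The counts at Klf13 include peaks nearest to the TSS of the nested E030018B13Rik, which were 27 of its 42 peaks in all lists. Long genes have wider windows, and per 10 kb of window the order changed. Klf6 then led for C/EBPβ with 2.25 peaks, before Klf13 with 1.94, and Klf9 led for PU.1 with 1.79, before Klf6 with 1.64 and Klf13 with 1.62. Klf7, which followed Klf6 by C/EBPβ peaks, had 0.602 per 10 kb, and Klf5 was lowest for both with 0.365 and 0.548.

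**Figure D4:**
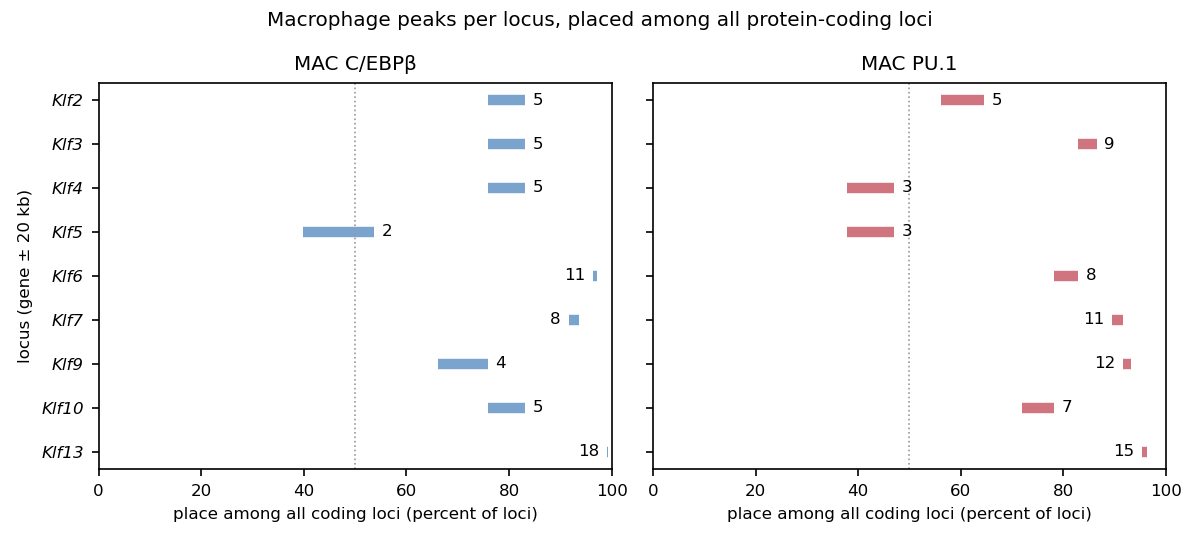
Place of each KLF locus among all 21774 protein-coding loci by its number of peaks of MAC C/EBPβ (left) and MAC PU.1 (right). Each bar runs from the percent of loci with fewer peaks to the percent with as many or fewer, numbers are peaks at the locus, and the dotted line marks the middle of all loci. Klf13 lies furthest right in both panels, and Klf4 and Klf5 lie left of the line for PU.1.

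The balance of the factors also differed. Of the 110 merged regions, 27 held both MAC factors (24.5%, 16.8 to 33.7%; 20.1% of all regions), 36 held C/EBPβ without PU.1 (32.7%; 27.1%) and 46 PU.1 without C/EBPβ (41.8%; 50.4%). At Klf13, 10 of 23 regions held both. At Klf9, 9 of 13 regions held PU.1 alone and 1 C/EBPβ alone, whereas at Klf6 it was 6 and 9 of 17. Of the MAC C/EBPβ peaks 27 of 63 overlapped PU.1 (42.9%, 30.5 to 56.0%), close to the 42.5% of the whole list, and of the MAC PU.1 peaks 27 of 73 overlapped C/EBPβ (37.0%), against 28.5% of that list.

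**Figure D5:**
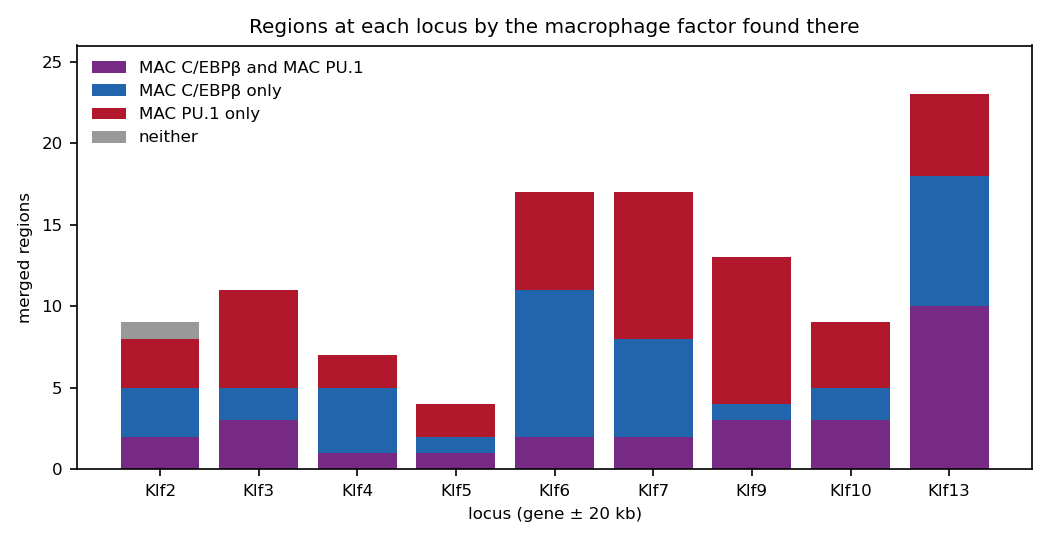
Merged regions at each KLF locus, stacked by the MAC factor found there. Klf13 has 23 regions with 10 of both factors, Klf9 has 13 with 9 of PU.1 alone, and the single region with neither is the HP GFI1B peak at the Klf2 promoter.

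PU.1 was found at the promoters as well as away from them. A MAC PU.1 peak was centred within 2 kb of an annotated TSS of the gene at 9 of 9 members, against 51.4% of coding genes with a curated TSS, and a MAC C/EBPβ peak at 6 of 9, against 37.7%. The numbers of promoter PU.1 peaks were 4 at Klf10, 3 each at Klf2 and Klf9, 2 each at Klf4, Klf7 and Klf13, and 1 each at Klf3, Klf5 and Klf6. Klf3, Klf4 and Klf7 were the members with no C/EBPβ peak there. In HP the promoters carried PU.1 at Klf5 and Klf7 (9.67% of genes), GFI1B at Klf2 and Klf7 (4.31%), RUNX1 at Klf10 and Klf13 (3.2%) and C/EBPβ at Klf10 (4.07%). Of the MAC PU.1 peaks at the KLF loci 20 of 73 were at a promoter of any coding gene (27.4%, 17.6 to 39.1%), against 18.0% of the list. Of the MAC C/EBPβ peaks 10 of 63 were (15.9%, 7.88 to 27.3%), against 16.4%. Each of these counts includes 1 peak at the promoter of E030018B13Rik, the gene nested in the Klf13 span. Both intervals include the share of the whole list, so no preference for promoters is read from them.

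Away from promoters, 55 of the 165 peaks lay in introns, 56 between genes, 14 in noncoding genes, 2 in a coding exon and 1 in a UTR exon of Klf6. The consensus of the assayed factor was found in about the usual share of MAC peaks. It was in 14 of 73 MAC PU.1 peaks (19.2%, 10.9 to 30.1%; 24.4% of the list) and in 11 of 63 MAC C/EBPβ peaks (17.5%, 9.05 to 29.1%; 14.9%). Klf13 held 0 of these 11 among its 18 C/EBPβ peaks and Klf7 held 4 among 8, a split chosen after the values were seen. In HP, 5 of 11 PU.1 peaks held GAGGAAGT (45.5%; 42.1%) and 2 of 5 C/EBPβ peaks held TTGCNNAA. None of the 3 HP GFI1B peaks held AATCNNNGC, with A or T, C or G, and A or T at the N positions (25.9% of the list). The AP-1 letters stood in 12 of 63 MAC C/EBPβ peaks (interval 10.2 to 30.9%; 17.9%) and 13 of 73 MAC PU.1 peaks (17.8%, 9.84 to 28.5%; 11.4%).

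Other genes of the family were counted in the same way. Of the other 8 KLF genes, 6 had a MAC C/EBPβ peak, 7 a MAC PU.1 peak, 4 an HP PU.1 peak and 2 an HP C/EBPβ peak, beside 73.8%, 79.1%, 38.2% and 14.8% of all coding loci. MES C/EBPβ was found at Klf1, an erythroid activator, and at Klf12, a CtBP-binding repressor, and HB C/EBPβ at Klf12. The other 6 had no such peak, which is near the background, since 6.47% of coding loci had a C/EBPβ peak in MES and 4.24% in HB. Of the 9 SP genes, whose products share the zinc finger block, 7 had a MAC C/EBPβ peak, 8 a MAC PU.1 peak, 5 an HP PU.1 peak, 2 an HP C/EBPβ peak and none a C/EBPβ peak in MES or HB. The MAC counts and the absence in MES and HB lie near the same shares of all coding loci, and the HP counts stand beside 38.2% and 14.8%, so nothing about the SP genes is read from them. Klf17 and Sp5 had no peak in any list. These genes were named after their values were seen.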

How the data were processed

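TF binding was measured by ChIP-seq in 14 libraries, each 1 factor at 1 of 5 stages, grouped by the sample labels. Per the study's methods, the authors trimmed reads with CutAdapt, aligned them to mm10 (GRCm38) with Bowtie, kept unique reads without duplicates (Picard), called peaks with MACS against the input of the stage with a p-value threshold set by eye for each list, and refined them with polyPeak. Some lists pooled several sequencing runs, and HE chromatin had carrier mRNA and histone 2B added. The deposited values are peak positions, each 400 bp wide, without scores or read counts. The study states that it reports aligned read totals for its experiments, and these were not used here. Versions of their tools are not given in the sources used here.

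From these, peaks overlapping a gene span plus 20 kb by 1 bp were counted at 9 KLF genes and, as background, at 21774 protein-coding genes of RefSeq GRCm38. Peaks overlapping by 1 bp were merged into 117293 regions. Promoters reached 2 kb either side of a curated TSS. Shares carry exact Clopper-Pearson 95% intervals. Consensus letters were searched on both strands of each peak. The members and lists were chosen with earlier results of these data known. All 9 members were named, with each region bound in a list other than MAC C/EBPβ and MAC PU.1 and the region bound in most lists. Wider and narrower windows, the peak centre, the nearest TSS, an overlap of 200 bp and a background of 16086 coding genes kept by length were tried as alternatives. That filter was broad, since the members' genes run from 2.6 to 92.9 kb, and it does not match the length of each member. Overlap counting was tested on simulated data. Python 3.11.15, SciPy 1.17.1, pandas 2.3.3, pysam 0.24.0 and Matplotlib 3.10.9 were used.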

Additional observations from a re-analysis of the deposited data

How the results depend on the processing

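Counting peaks inside the gene span alone gave 81 peaks in place of 165 and 3 members with a C/EBPβ peak before MAC in place of 6, and combinations of locus and list with a peak fell from 41 to 29. Windows of 10 and 50 kb gave 134 and 229 peaks, 37 and 43 combinations, and 4 and 7 members with C/EBPβ before MAC. Requiring the peak centre inside the window changed none of these counts, and requiring the member's TSS to be the nearest gave 138 peaks and 37 combinations, with 6 members. Under each of these settings, all HP PU.1 and HP C/EBPβ peaks at the KLF loci overlapped the MAC list of the same factor, also at an overlap of 200 bp. The share of MAC C/EBPβ peaks with PU.1 ran from 36.5 to 46.0%. At 20 kb, C/EBPβ had a peak at 8.14% of all coding loci in MES, HB or HE and at 14.8% in HP. No share of all coding loci was counted at the other windows, so the counts of members and combinations there are descriptions only. The count of peaks before MAC that overlapped a MAC peak, which was added after seeing the data, was 28 of 29 (96.6%), and 27 of 29 (93.1%) at an overlap of 200 bp. Among the 16086 coding genes kept by length the background rose to 78.8% for MAC C/EBPβ, 84.5% for MAC PU.1 and 39.2% for HP PU.1. It was 6.24% for MES C/EBPβ and 4.08% for HB C/EBPβ. No paired analysis was possible because each group holds 1 list. With 1 library per group, the stage, the library and its threshold cannot be told apart.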
